A study of Mus musculus with 4 samples.

Results

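Klk6/Anln-type cells are mature oligodendrocytes in which the transcripts of Klk6, Anln, Hapln2 and Gjb1 are abundant and that of Opalin is scarce. They were selected on their own measured RNA. A cell had to pass a filter of at least 400 detected genes and at most 20% mitochondrial UMIs (unique molecular identifiers, tags that mark single RNA molecules). It had to hold at least 3 of the 6 oligodendrocyte genes Mog, Mag, Cldn11, Ermn, Opalin and Ugt8a, and at most 1 of Cldn5, Flt1, Aqp4, Tmem119, P2ry12 and Snap25, which mark other cells. Finally, more genes had to be detected on the Klk6 side (Klk6, Anln, Hapln2, Gjb1, Itgb4) than on the Opalin side (Opalin, Il33, Grb14, Pex5l, Kcna1). This rule found 158 cells, or 1.57% of the 10067 cells that passed the filter and 17.6% of the 897 mature oligodendrocytes. Mature oligodendrocytes with more genes on the Opalin side, called Opalin-type below, numbered 650, and 89 cells had a tie.

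The brains of 4 mice (C57BL/6J, male, P90) were taken whole and gave 1 droplet library each with the 10x 3′ version 2 chemistry, all labelled Batch 1. All brains were digested with enzymes at 37 °C. The 2 mice of the no-inhibitor group were processed without drugs, and for the 2 mice of the inhibitor group actinomycin D and triptolide, which block transcription, and anisomycin, which blocks translation, were added to the buffers. Values below follow the order no-inhibitor mouse 1, no-inhibitor mouse 2, inhibitor mouse 1, inhibitor mouse 2. The 158 cells came as 45, 22, 46 and 45 cells from these mice.

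Mature oligodendrocytes wrap axons in myelin and keep it supplied with lipid and protein. They are known to differ in state, and Klk6-rich cells are often described in hindbrain and spinal cord white matter. An order of maturation between the types was not tested. Klk6 encodes a secreted serine protease, Anln the scaffold anillin that binds septins in myelin, Hapln2 a link protein of the matrix at nodes of Ranvier, and Gjb1 the gap junction protein connexin 32. On the other side, Opalin is a glycoprotein of central myelin and Il33 a nuclear cytokine of the interleukin-1 family.

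The Klk6-type cells were deep. Their median UMIs per cell were 4415, 4580.5, 4014.5 and 3633, against 2812, 2930, 2770.5 and 2364.5 in Opalin-type cells, so that a gene was more easily detected in them. Single cells ranged from 1010 to 8836 UMIs. Their median mitochondrial share ran from 4.66% to 5.90%, below the 6.38% to 7.27% of Opalin-type cells, and was higher in both inhibitor mice. Of 67 barcodes found in more than 1 library, 0 belonged to these cells, and 2 of the 158 were among the 206 cells (2.05%) with the highest doublet scores. One of the genes of other cells was detected in 40 of the 158, most often Cldn5 (13 cells) and Snap25 (11 cells). Between libraries, the chi-square per degree of freedom of the summed counts was 1.44 and 1.38 within groups and 1.45 to 2.27 between groups, so no library repeated another.

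The label was held against marker genes that the rule had not used. Levels are given as CPM, the UMIs of a gene in all cells of a type in a mouse, scaled to a total of 1000000 UMIs. The 8 mature oligodendrocyte markers Mbp, Mobp, Cnp, Trf, Aspa, Sox10, Car2 and Enpp2 summed to 33130, 34005, 32215 and 29770 CPM, against 28888 to 31372 in Opalin-type cells. All 8 were present. Of the precursor markers, Pdgfra, Bmp4 and Neu4 were at 0, and Enpp6 gave 76 of 82, 22 of 27, 61 of 66 and 48 of 51 UMIs of that list. Of 5 markers of Schwann and olfactory ensheathing cells, Prx, Pmp2 and Frzb were at 0 and the summed level was 5.96 to 10.3 CPM. The cells thus carried markers of mature oligodendrocytes of either type and at most 2 UMIs per mouse of the latter list. The Klk6 part of the label was not checked in this way, since the rule used its markers. Summed precursor markers, mostly Enpp6, were at 254 to 410 CPM, against 91.4 to 279 in Opalin-type cells.

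Genes of other cell types were low but present. Summed microglial markers lay between 141 and 206 CPM, astrocyte markers between 340 and 735, endothelial markers between 360 and 475, and mural markers between 0 and 41.1. Choroid plexus markers reached 890 to 1992, less than the 1277 to 7287 in Opalin-type cells. Neuronal and erythrocyte markers moved with the groups, and their values are given beside the results they touch.

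The members varied among themselves in how many of the selection genes they held. All 5 Klk6-side genes were detected in 69 cells, 4 in 51, 3 in 26, 2 in 11 and 1 in 1 cell, while 7 cells held no gene of the Opalin side. A lead of 1 gene, just inside the threshold, was the most frequent with 58 cells, followed by leads of 2 (45 cells), 3 (31), 4 (22) and 5 (2). Just outside the threshold lay the 89 tied cells and 127 cells that trailed by 1. When each cell was thinned to 1500 UMIs, 128 of the 153 members that were deep enough still met the rule.

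The selection genes themselves are given as a description only. Klk6 stood at 1195, 584, 910 and 835 CPM in Klk6-type cells and at 11.3, 4.85, 20.2 and 4.90 in Opalin-type cells. Itgb4, the integrin β4 chain, stood at 275, 132, 288 and 310 against 24.8, 48.5, 53.0 and 47.3. Anln, Hapln2 and Gjb1 were also frequent in Opalin-type cells: without thinning, Anln was detected in 24.2% of these, Gjb1 in 56.5% and Hapln2 in 60.5%, against 84.8%, 93.04% and 97.5% of Klk6-type cells. Klk6 was detected in 1.85% of Opalin-type and 72.2% of Klk6-type cells, and among the 5 genes it separated the types most sharply. On the Opalin side, Pex5l differed least, with 365, 528, 422 and 495 CPM against 667, 603, 747 and 692.

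Beyond the selection genes, S100b and Ptgds differed most between Klk6-type and Opalin-type cells among genes with at least 100 UMIs. S100b encodes a small calcium-binding protein, and Ptgds the lipocalin-type prostaglandin D synthase, a major transcript of mature oligodendrocytes. Since the rule chose the cells by their transcripts, every gene of this contrast counts as used, and the levels are a description without a test. Log2 ratios are Klk6-type over Opalin-type within a mouse, after adding 10 CPM to each level. The promoters of these opposed genes are shown because they carry this contrast, from RefSeq on GRCm38.p6, 250 bases before to 50 after the start, on the coding strand. S100b lies at chr10:76253586-76253885 (plus strand) and Ptgds at chr2:25469700-25469999 (minus strand). Capitals mark matches, on either strand, to CCAAT, the Sox-type motif ACAANG and the AP-1 motif TGANTCA.
S100b: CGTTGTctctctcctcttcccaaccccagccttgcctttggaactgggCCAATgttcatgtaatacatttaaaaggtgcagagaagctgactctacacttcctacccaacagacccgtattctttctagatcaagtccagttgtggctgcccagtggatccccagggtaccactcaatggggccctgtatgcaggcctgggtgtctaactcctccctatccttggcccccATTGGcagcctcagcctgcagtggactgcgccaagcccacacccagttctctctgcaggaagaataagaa
Ptgds: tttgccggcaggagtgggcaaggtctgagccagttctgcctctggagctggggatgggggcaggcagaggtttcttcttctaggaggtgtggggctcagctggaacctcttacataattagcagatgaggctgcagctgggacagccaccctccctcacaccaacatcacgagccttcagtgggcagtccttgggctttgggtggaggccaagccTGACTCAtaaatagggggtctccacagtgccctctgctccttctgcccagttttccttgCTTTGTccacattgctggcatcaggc

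In the S100b window CCAAT matched at -202 and, on the other strand, at -20, and a Sox-type match lay at -250. In the Ptgds window an AP-1 match lay at -35 and a Sox-type match at 24. Among 32851 promoter windows of this length outside chromosome 18, 37.4% held CCAAT, 41.2% the Sox-type motif and 7.81% the AP-1 motif. These matches describe the letters of the windows and show no binding.

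S100b stood at 3111, 2771, 2659 and 2564 CPM in Klk6-type cells and at 167, 199, 194 and 183 in Opalin-type cells. The lowest Klk6-type level was far above the highest Opalin-type level, and the log2 ratios of 4.14, 3.74, 3.71 and 3.74 hardly differed between mice (median 3.74, SD 0.21, n = 4). Ptgds stood at 480, 679, 859 and 787 CPM against 14430, 12713, 12859 and 12683. Its log2 ratio was -4.88, -4.21, -3.89 and -3.99 (median -4.10, SD 0.45, n = 4). Of 467 Ptgds UMIs in Klk6-type cells, single cells held 24, 25, 49 and 40 in the respective mice, so the remaining Ptgds was spread unevenly.

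UMIs read at the 3′ end do not scale with transcript length, so S100b and Ptgds were also compared within each cell, thinned to 1500 UMIs. More S100b than Ptgds was found in 119 of 153 Klk6-type cells (77.8%), in 22 of 78 tied cells (28.2%) and in 14 of 626 Opalin-type cells (2.24%). More Ptgds than S100b was found in 21 Klk6-type cells (13.7%) and in 589 Opalin-type cells (94.1%). At that depth S100b was detected in 83.0% of Klk6-type cells (exact binomial 95% interval 76.1% to 88.6%; 88.0% without thinning) and in 17.9% of Opalin-type cells (28.2% without thinning). In microglia, chosen by their own markers and serving as cells that should lack the gene, it was detected in 9.93% at the same depth. Only 1068 of 2519 microglia were deep enough to be counted, against 153 of 158 Klk6-type cells. Before this cut the median depth was 1423 UMIs per cell in microglia and 4101 in Klk6-type cells. Ptgds was detected in 28.1% of Klk6-type cells (exact binomial 95% interval 21.1% to 35.9%; 49.4% without thinning) and 95.05% of Opalin-type cells. It was detected in 20.4% of microglia and in 14.3% of endothelial cells, also chosen by their own markers. Its share in Klk6-type cells thus lay above both but nearer to them than to the Opalin-type share. The intervals cover counting error only.

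**Figure D1:**
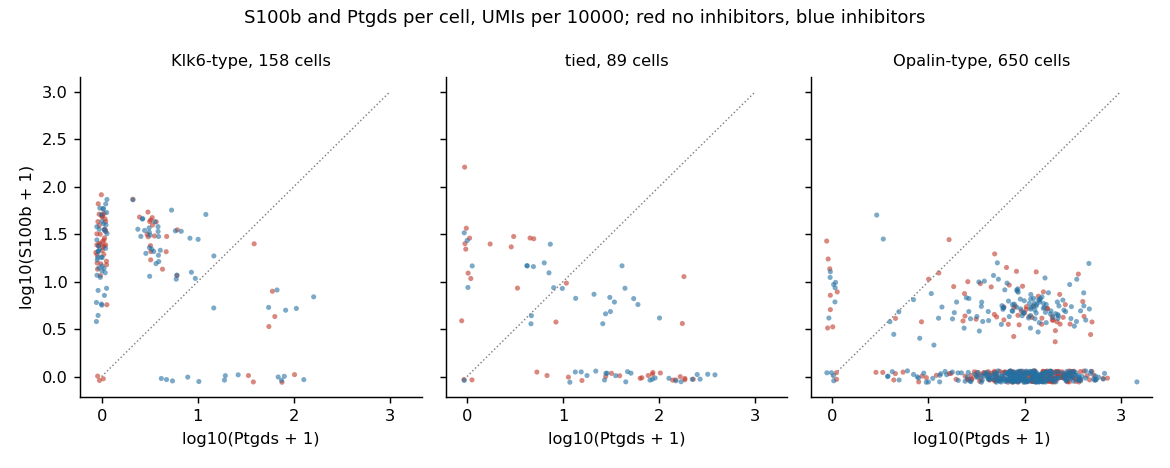
S100b against Ptgds in each mature oligodendrocyte, as log10 of UMIs per 10000 plus 1, in Klk6-type (left), tied (middle) and Opalin-type cells (right), with a small random shift so that points at 0 can be seen. Each point is a cell, red without and blue with inhibitors, and the dotted line marks equal levels. Most Klk6-type cells lie above the line and most Opalin-type cells far below it.

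The pooled levels of S100b and Ptgds changed stepwise with the lead. Levels were pooled over the cells of the 4 mice for each difference between Klk6-side and Opalin-side genes detected. S100b fell from 3786 CPM at a lead of 3 or more (55 cells) to 2630 at a lead of 2 and 1533 at a lead of 1. It was 891 in tied cells and 420, 146 and 119 in cells that trailed by 1, 2 and 3 or more. Ptgds ran the other way, from 121, 538 and 1664 over the same leads to 4953 in tied cells and 8415, 12740 and 15187 in trailing cells. The cells just inside the threshold therefore held more Ptgds than S100b in sum. This does not hold for the typical cell there, since S100b was detected in 74.1% and Ptgds in 51.7% of these 58 cells. Ptgds was detected in a like share at leads of 3 or more (49.1%) and 2 (46.7%), although its pooled level differed. Whether single cells shift by steps or cells of different kinds are mixed was not tested. Selenop and Pmp22 also declined at every step. Apod was 3003 to 3647 over the leads and 1078 to 1776 in tied and trailing cells, without an even order within either, whereas Mbp stayed between 10158 and 11069 at every step. Hopx, which encodes a homeodomain-only protein, was at 160, 101 and 70.2 over the 3 leads, at 13.9 in tied cells and at 0, 0 and 2.12 in trailing cells.

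**Figure D2:**
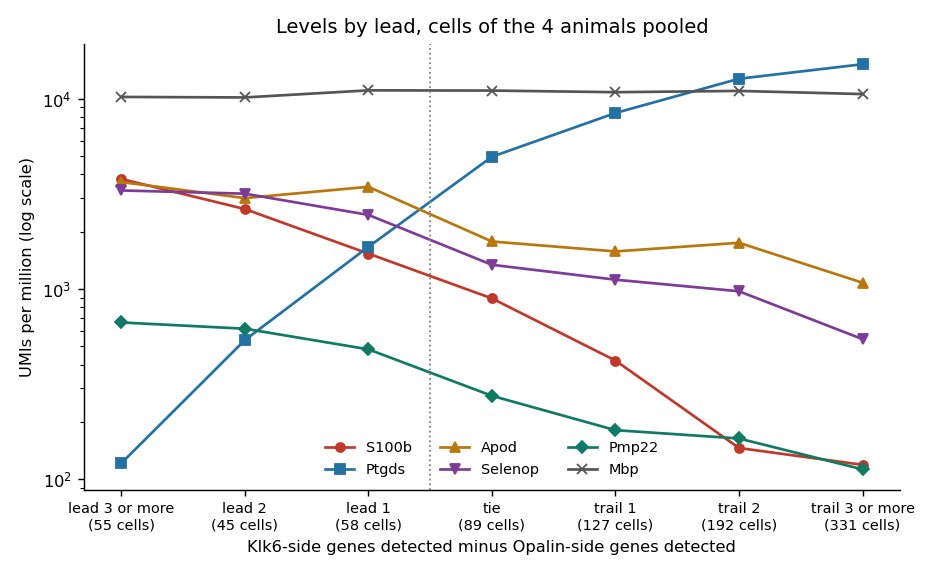
Levels of 6 genes outside the rule in CPM (log axis) against the number of Klk6-side genes detected minus that of the Opalin side, pooled over 4 mice. Cells left of the dotted line are Klk6-type. S100b, Selenop and Pmp22 decline from left to right, Apod is lower right of the line, Ptgds climbs from 121 to 15187, and Mbp stays level.

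Of 3422 genes outside the rule with at least 100 UMIs in both types together, 630 (18.4%) had a higher level in Klk6-type cells in all 4 mice and 491 (14.3%) a lower one. The median log2 ratio of the 3422 genes was 0.02. Only 40 (1.17%) were higher by a log2 ratio of at least 1 in every mouse, and 37 (1.08%) were lower by that much. Few genes thus differed by that much in every mouse, which does not show that the others were alike.

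The genes with the largest ratios after S100b covered several roles. Mgst3, a microsomal glutathione transferase, stood at 425, 170, 231 and 215 CPM against 20.2 to 31.5 (median log2 ratio 2.92). Anxa5, a phospholipid-binding annexin, stood at 445, 207, 206 and 262 against 27.7 to 45.1 (2.64). Both were highest in no-inhibitor mouse 1 but exceeded the Opalin-type level in each mouse. Lipid genes among them were Plin3, a coat protein of lipid droplets (406 to 665 CPM, 2.24), Faah, which hydrolyses anandamide (104 to 175, 2.43), and Enpp6, a choline phosphodiesterase used as a marker of newly formed oligodendrocytes (207 to 380, 2.22). The tubulins Tubb2b (94.2 to 173, 2.52) and Tubb3 (143 to 315, 1.95) and the ubiquitin hydrolase Uchl1 (123 to 180, 2.87) are best known from neurons. Pmp22, a protein of peripheral myelin, stood at 545, 631, 669 and 555 against 116 to 194 (2.19). The rest were Slc25a27, a mitochondrial carrier (2.54), Aven, an inhibitor of apoptosis (2.41), Cd59a, an inhibitor of complement (2.27), Chst2, a sulfotransferase (2.09), and Fam131b (1.92).

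Among abundant transcripts, the secreted proteins Selenop, Apod and Trf were higher in Klk6-type cells. Selenop, which carries selenium, stood at 2806, 3327, 3045 and 3000 CPM against 657 to 860 (median log2 ratio 1.87). Apod, a lipid-binding apolipoprotein, stood at 3791, 4269, 2993 and 2874 against 1105 to 1643 (1.31). Trf, the iron carrier transferrin, stood at 8093, 7794, 6557 and 6238 against 2972 to 4031, and its log2 ratio of 1.01 had an SD of 0.03 over the mice. For these 3 genes the types did not overlap in any mouse.

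The genes with the smallest ratios after Ptgds had at most 54 UMIs in Klk6-type cells, so their pooled counts are given. Intervals of pooled counts, here and below, cover counting error only and leave out the spread between cells and between mice. Mcam, an adhesion molecule, had 2 UMIs in Klk6-type and 188 in Opalin-type cells, a ratio of levels of 33.7 (exact 95% counting interval 9.19 to 280). Cntn1, an axoglial contactin, had 4 and 166 UMIs (ratio 14.9, 5.70 to 55.2), and Tmem163 had 2 and 115 (20.6, 5.57 to 172). Cd9, a tetraspanin of myelin, had 54 and 1106 UMIs (7.34, 5.58 to 9.83) and was found in every mouse. The noncoding 9630013A20Rik had 0 and 145 UMIs, hence a level at least 17.3-fold lower in Klk6-type cells when 3 counts over the 4 mice are taken as the floor. Those UMIs came from 3, 4, 4 and 3 Opalin-type cells, of which single cells held 37 of 43, 51 of 79, 5 of 13 and 8 of 10, so the bound rests on few cells. The Opalin-type level was 97.0, 191, 32.8 and 16.3 CPM and thus also higher without inhibitors. It lies within Pcdh17 on the opposite strand of chromosome 14, and Pcdh17, a protocadherin, had 10 and 278 UMIs (9.96, 5.33 to 21.0). The strand setting of the counting was not given, so the reads of these overlapping genes cannot be told apart with certainty. Dusp10, a phosphatase of MAP kinases, and C030029H02Rik had median log2 ratios of -2.37 and -2.66.

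**Figure D3:**
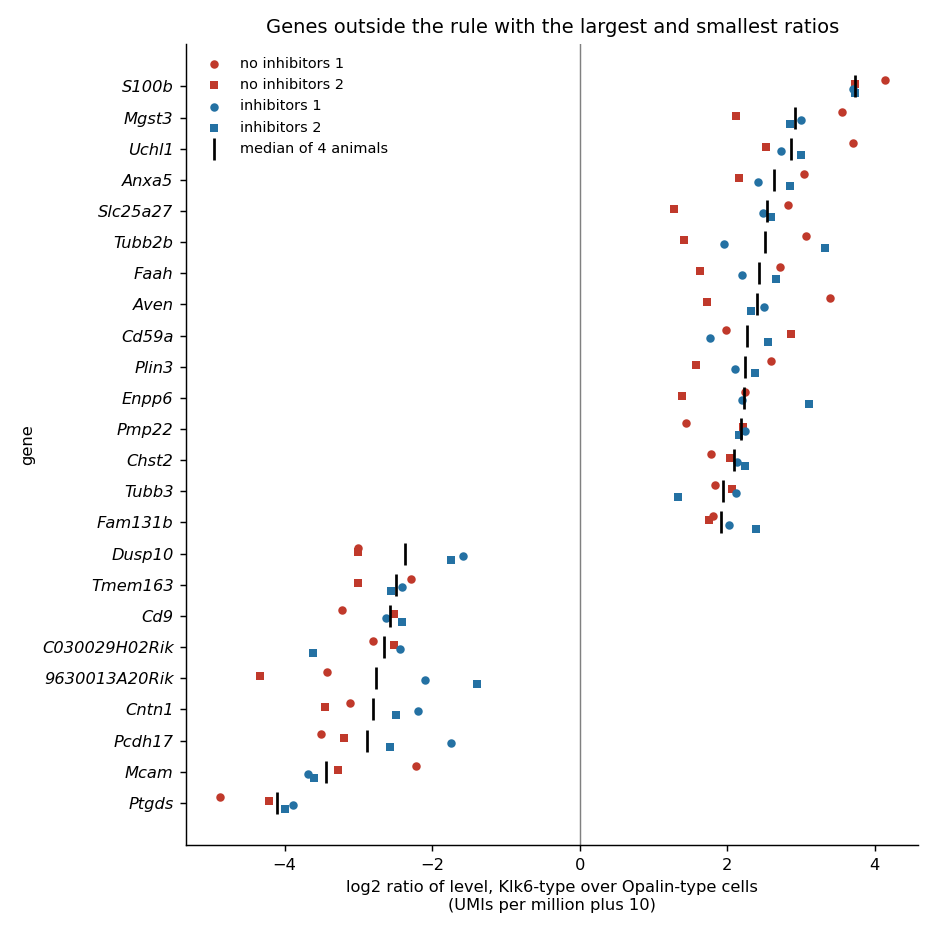
Log2 ratio of the level in Klk6-type over Opalin-type cells (CPM plus 10) for the 15 genes outside the rule with the largest median and 9 of those with the smallest, with 1 point per mouse and a bar at the median of 4 mice. S100b and Ptgds lie at the extremes. Genes were plotted only if their sign was the same in all 4 mice.

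Some low genes were chosen after their values were seen. Hopx had 78 UMIs in Klk6-type and 2 in Opalin-type cells, a ratio of 109 (exact 95% counting interval 29.1 to 915). Nkx2-9, a homeobox gene, had 65 and 1 (181, 31.4 to 7276), and Cdkn1c, an inhibitor of cyclin-dependent kinases, had 56 and 16 (9.77, 5.53 to 18.2). At 1500 UMIs Hopx was detected in 15.03% of Klk6-type cells (31.6% without thinning), 0.160% of Opalin-type cells and 0.0936% of microglia.

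Genes of myelin itself differed little or were lower in Klk6-type cells. Of 19 genes of compact myelin and adhesion outside the rule, 3 were higher and 10 lower in all 4 mice. Among all 3422 genes, 18.4% were higher and 14.3% lower. The median log2 ratio of the 19 was -0.28, beside 0.02 for all genes. Mbp, the myelin basic protein, stood at 9688, 10575, 11366 and 10246 CPM against 9450 to 11499 (-0.03), with overlapping values. Below the Opalin-type level were Cd9 (-2.57), Mal (-0.997), Cd81 (-1.03), Nfasc (-1.28) and the tetraspanin Tspan2 (-1.68). Thus Mbp was at a like level while several membrane proteins were lower.

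Septins assemble on anillin in myelin, but their genes did not follow Anln as a group. Sept8 was higher (log2 ratio 0.56), Sept7 was at 0.04 with mixed signs and Sept4 was lower (-0.78). Counts of the lists that follow stand beside 18.4% of all genes higher and 14.3% lower in all 4 mice. Of 8 node and paranode genes, only the potassium channel Kcnj10 was higher in all 4 mice (0.59) and 3 were lower, with a median of -0.46. Of 10 genes of gap junctions and ion transport, 4 were higher and 3 lower (median -0.03). Among the higher ones were Kcnj10, the glycine transporter Slc6a9 (0.54) and Car14 (0.39).

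Of 12 genes of cholesterol synthesis 5 were higher and 1 lower, with a median log2 ratio of 0.29. Msmo1 (0.79) and Hmgcs1 (0.62) were among these 5, and Insig1, which restrains the pathway, was lower (-0.45). Of 13 genes of myelin lipid synthesis 5 were higher and 2 lower (0.10), among the former the fatty acid elongases Elovl5 (0.75) and Elovl7 (0.67), Gal3st1, which makes sulfatide (0.69), and Fa2h, which makes hydroxylated fatty acids (0.50). Among 12 transcription factors of the lineage, Olig1 (-0.83), Olig2 (-1.18), Tcf7l2 and Zfp536 were lower and Nkx2-2 was higher (0.33). Sox10 was at -0.23 with mixed signs.

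A list of genes known to vary between mature oligodendrocyte states had 16 members outside the rule with enough UMIs, of which 9 were higher and 5 lower (median log2 ratio 0.82). Higher were S100b, Mgst3, Anxa5, Cd59a, Apod, Spock3 (1.22), S100a1 (1.17), Trf and the channel gene Hcn2 (0.63). Ptgds, Qdpr (-0.99), Jph4, Dusp1 and Car2 (-0.20) were lower. This list was drawn up with earlier results of these data known, so its direction is no independent evidence. Of 6 genes associated with oligodendrocytes in disease, 1 was higher (Cdkn1a, 0.87) and 1 lower (Cd63, -2.18). Of 3 kallikrein and inhibitor genes beside Klk6, Serpinb1a was higher (1.12) and Cst3 lower (-0.29).

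Genes of position along the axis were too sparse to place the cells. Of 28 Hox genes, which are active in the hindbrain and cord, 26 were at 0 in Klk6-type cells, and of 14 forebrain genes 8 were at 0. Not a single gene of either list reached 100 UMIs.

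Whether the inhibitors changed how many Klk6-type cells were recovered was compared over mice. They made up 45 of 206 (21.8%, exact binomial 95% interval 16.4% to 28.1%), 22 of 172 (12.8%, 8.19% to 18.7%), 46 of 198 (23.2%, 17.5% to 29.7%) and 45 of 321 mature oligodendrocytes (14.0%, 10.4% to 18.3%). The 2 mice of each group differed by more than the groups did. The mean share was 17.3% ± 6.40 in the no-inhibitor and 18.6% ± 6.52 in the inhibitor group (SD, n = 2 mice; exact two-sided permutation p = 0.667, where 0.333 is the smallest p that 2 against 2 allows). Of all cells that passed the filter, the share was 2.00%, 0.780%, 2.16% and 1.56%.

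The main comparison asked which genes of Klk6-type cells differed between digestion without and with inhibitors. UMIs were summed per mouse, giving 199938, 106102, 194442 and 167683. In 2939 genes tested, edgeR's quasi-likelihood test called 12 higher without inhibitors (0.408% of genes tested) and 2 lower (0.0681%). A call needed an adjusted p (Benjamini-Hochberg) below 0.05 and a log2 fold change beyond 0.58 in size. Of the 14, Cldn11 and Il33 are genes of the rule, whose calls are no independent result. At an unadjusted p under 0.05 there were 264 genes. DESeq2 called 0 genes, with 44 at an unadjusted p under 0.05, so every call rests on the edgeR fit. Fold changes are given as no inhibitors over inhibitors.

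Fos and Jun, immediate-early genes whose proteins pair in the AP-1 factor, had the largest increases. The Fos promoter lies at chr12:85473640-85473939 (plus strand) and the Jun promoter at chr4:95052173-95052472 (minus strand), on the same build. They are shown because these genes changed together. On either strand, capitals mark the GC box, which was searched as GGGCGG. They also mark the TATA box, which was searched as TATAAA. Likewise marked are CCAAT, as above, and a CRE-type motif of cyclic AMP response elements, searched as TGACNTCA.
Fos: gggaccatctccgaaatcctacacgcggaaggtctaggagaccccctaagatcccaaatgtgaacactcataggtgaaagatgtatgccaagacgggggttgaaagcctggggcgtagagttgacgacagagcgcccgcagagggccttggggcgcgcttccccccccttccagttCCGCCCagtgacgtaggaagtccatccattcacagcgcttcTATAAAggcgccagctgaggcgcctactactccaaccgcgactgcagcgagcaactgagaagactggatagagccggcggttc
Jun: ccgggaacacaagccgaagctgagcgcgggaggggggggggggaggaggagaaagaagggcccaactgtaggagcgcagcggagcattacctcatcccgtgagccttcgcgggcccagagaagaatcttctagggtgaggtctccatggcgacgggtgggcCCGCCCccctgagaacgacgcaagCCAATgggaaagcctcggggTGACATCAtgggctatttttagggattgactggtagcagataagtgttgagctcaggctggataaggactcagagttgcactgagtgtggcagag

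The Fos window held a TATA box at -33 and a GC box at -74, and the Jun window a CRE-type match at -45, CCAAT at -65 and a GC box at -89. Among all windows 13.6% held the TATA box, 35.7% the GC box and 8.83% the CRE-type motif. Neither window held a match to TGANTCA, the only form of the AP-1 motif that was searched.

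Fos stood at 180, 132, 5.14 and 0 CPM. These levels rest on 36, 14, 1 and 0 UMIs, where 3 counts in inhibitor mouse 2 would be 17.9 CPM. The groups did not overlap, and the fitted log2 fold change was 5.50 (SE 0.71, edgeR adjusted p 3.42e-11), while the pooled counts of 50 and 1 UMIs give a ratio of 59.2 with an exact 95% counting interval of 10.1 to 2383. In no-inhibitor mouse 1 the UMIs came from 11 of 45 cells, with 10 in the highest cell. In no-inhibitor mouse 2 all 14 came from 1 of 22 cells. In the inhibitor mice Fos was found in 1 of 46 and 0 of 45 cells, the latter allowing a share of cells with a Fos UMI of up to 6.67%, which sets no limit on cells that express it. Without no-inhibitor mouse 1 the Fos call was lost (log2 fold change 5.21, adjusted p 0.419).

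Jun stood at 235, 273, 61.7 and 47.7 CPM, from 47, 29, 12 and 8 UMIs in 18, 10, 11 and 7 cells. Its log2 fold change was 2.12 (SE 0.35, edgeR adjusted p 2.10e-06), and it remained called when the highest cell of each library was left out (2.08, adjusted p 0.000121). Fos, by contrast, then fell under the expression filter.

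The other 10 genes called higher had smaller fold changes and, apart from Cacybp and Hbb-bs, high levels. Cd81, a tetraspanin of myelin, stood at 1450, 1546, 905 and 692 CPM (log2 fold change 0.85, SE 0.15, edgeR adjusted p 1.61e-05). Tecr, which completes the elongation of very long fatty acids, stood at 735, 594, 432 and 298 (0.84). Cldn11, the claudin of myelin and a gene of the rule, stood at 2871, 3016, 1959 and 1694 (0.64). The groups did not overlap for any of these 3, where 21.0% of all genes tested were higher without inhibitors and without overlap. Since the 3 were named for being called, this adds no support. Itm2b (0.76), the small GTPase Rap1a (0.65), the ubiquitin ligase Rnf13 (0.62) and the lysosomal membrane protein Lamp1 (0.60) were also called. Cacybp, a calcyclin-binding protein, stood at 195, 226, 72.0 and 77.5 (1.42, edgeR adjusted p 0.0103).

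Hbb-bs, a β-globin of erythrocytes, stood at 125, 236, 36.0 and 89.5 CPM (log2 fold change 1.40, edgeR adjusted p 0.0320). It is uncertain, since the near-identical Hbb-bt could share its reads. The 5 erythrocyte markers summed to 215, 330, 82.3 and 131 CPM, with Alas2 at 0, and to 329, 620, 106 and 163 in Opalin-type cells. Their part in the result was not tested.

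The 2 genes called lower without inhibitors rested on few cells. Meg3, a noncoding RNA abundant in neurons, had 1, 1, 30 and 33 UMIs, and single cells held 30 and 27 of those in the inhibitor mice. The 4 neuronal markers outside the rule had 3, 1, 32 and 37 UMIs, so Meg3 made up nearly all of them, and its part in the result was not tested. Il33, itself a gene of the rule, had 1, 4, 35 and 10 UMIs in 1, 4, 9 and 5 cells, a pooled ratio of 7.61 towards the inhibitor group (exact 95% counting interval 3.03 to 24.6). Without the highest cell of each library both genes fell under the expression filter and 0 genes were called lower.

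**Figure D4:**
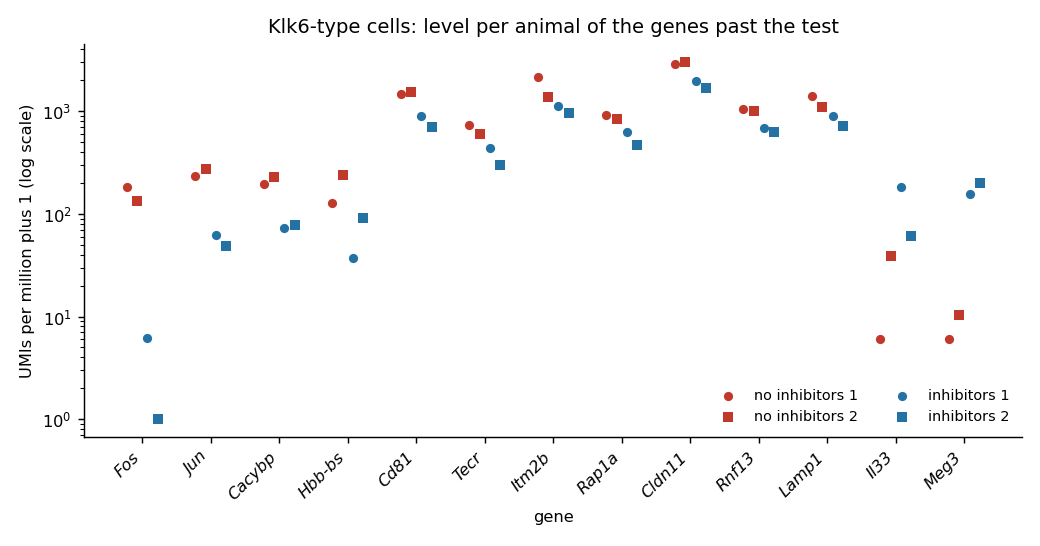
Level per mouse, in CPM plus 1 on a log axis, of 13 of the 14 genes that edgeR called between the groups in Klk6-type cells, red without and blue with inhibitors. Fos and Jun are apart between groups by the largest steps upwards, while Meg3 and Il33 lie lower without inhibitors.

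The genes of the rule had to be detected, or missed, for a cell to be chosen in either group, so the selection partly fixed their levels and their fold changes are a description. On the log2 scale they were 0.06 for Klk6 (SE 0.16), -0.13 for Anln, -0.20 for Hapln2, 0.16 for Gjb1 and -0.47 for Itgb4. Opalin was at -0.10, Mag at -0.15 and Mog at 0.29. Among genes outside the rule, Mbp was at -0.14 (SE 0.11) and was not called. S100b was at 0.14 (SE 0.13) and Ptgds at -0.60 (SE 0.17, edgeR adjusted p 0.0578). The sign for Klk6 turned to -0.60 without no-inhibitor mouse 1.

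Most genes of the known digestion response were too rare in Klk6-type cells to be tested. In UMIs, Fosb had 3, 2, 0 and 0, Junb 1, 1, 0 and 0, Egr1 4, 1, 0 and 1, and Ier2 4, 0, 0 and 1. Dusp1 had 7, 2, 2 and 1, Zfp36 2, 1, 1 and 0, Btg2 1, 0, 2 and 0, Hspa1a 3, 2, 3 and 2, and Atf3 had 0 in each mouse. These counts do not allow a difference to be seen at this depth.

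Lists of such genes were read against all 2939 genes, whose median log2 fold change was -0.01. Of these 2939 genes 0.408% were called higher, and 49.1% had a log2 fold change above 0. Of 25 consensus activation genes, found by the study in sorted microglia of other mice, 7 were tested and 2 called higher (Fos, Jun), with a median of 0.16 and 7 of 7 above 0. Of 19 genes that the study chose on these same libraries, which is no independent evidence, 2 were tested and both were called, again Fos and Jun. Of 36 immediate-early genes 5 were tested and the same 2 called (median 0.31), and Sgk1, a glucocorticoid-induced kinase, was at -0.66. None of 10 heat shock chaperones tested was called (median 0.03), with Hsp90aa1 at 0.14 and Hspa8 at -0.09. The groups did not overlap, with higher values without inhibitors, in 3 of the 7 consensus genes and 3 of the 10 chaperones, where 21.0% of all genes tested did so; 2 chaperones were lower without overlap, against 15.5% of all genes.

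Of 24 compact myelin and adhesion genes 2 were called higher, Cd81 and the rule gene Cldn11, where 0.408% of all genes tested were, and the median was 0.09, and of 18 genes of mature states only Il33 was called, lower. By edgeR none was called among 12 genes of cholesterol synthesis, 15 of myelin lipid synthesis, 13 transcription factors, 12 of gap junctions and ion transport, 8 of node and paranode and 4 septins and anillin. Since only 0.408% of all genes tested were called higher and 0.0681% lower, lists this short allow no conclusion from having no call. DESeq2 called none of any list.

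Counts of the consensus genes were also compared per cell at a common depth of 1000 UMIs. Klk6-type cells held on average 3.16 and 3.59 such UMIs without and 2.59 and 2.64 with inhibitors. The groups did not overlap, with means of 3.37 ± 0.308 and 2.62 ± 0.0407 (SD, n = 2 mice; exact two-sided permutation p = 0.333, the smallest that 2 against 2 allows). Opalin-type cells held 4.39 and 4.08 without and 3.09 and 3.31 with inhibitors, a difference of 1.03 against 0.758 in Klk6-type cells. For the immediate-early list the averages in Klk6-type cells were 2.33 and 1.82 without and 1.54 and 1.22 with inhibitors, a difference of 0.693 (exact two-sided permutation p = 0.333). In Opalin-type cells they were 2.58 and 1.89 without and 2.11 and 2.04 with inhibitors, with overlapping groups and a difference of 0.165 (exact two-sided permutation p = 1.0). The differences of the types were not tested against each other.

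In Opalin-type cells of the same mice, 5109 genes were tested and edgeR called 18 higher (0.352%) and 3 lower (0.0587%). Fos, Jun, Cd81 and Tecr were called in both types, which is 28.6% of the 14 Klk6-type calls and 19.0% of the 21 Opalin-type calls. Fos had a log2 fold change of 5.58 (SE 0.44) and Jun of 0.97 (SE 0.19) in Opalin-type cells. Junb (3.28) and Hspa1a (1.67) were called there and had too few UMIs in Klk6-type cells.

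A call in only 1 type does not show a difference, so the difference of the fold changes was tested with the mouse as a block. Of 4854 genes edgeR called 3 (0.0618%), each lower in Klk6-type cells and Il33, a gene of the rule that split the types, among them, with 226 at an unadjusted p under 0.05, and DESeq2 called 0 (10 at an unadjusted p under 0.05). Neither Fos (difference 0.27, SE 1.41, edgeR adjusted p 0.996) nor Jun (1.20, SE 0.41, adjusted p 0.986) was among them. The SE for Fos was large, and the sign of its difference changed under several settings. The 3 genes were Il33, B2m and Ptgds.

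B2m, the light chain of MHC class I, stood at 55.0, 75.4, 77.1 and 155 CPM in Klk6-type cells and at 253, 150, 83.3 and 70.2 in Opalin-type cells. The groups lay in opposite order in the types, with a difference of log2 fold changes of -2.36 (SE 0.46, edgeR adjusted p 0.00135). In inhibitor mouse 2, 13 of its 26 UMIs in Klk6-type cells came from 1 cell, and without the highest cell of each library the call was lost (-2.01, adjusted p 0.239). For Il33 the difference was -3.04, a description only, since the rule used its detection. For Ptgds it was -0.64 (SE 0.14, edgeR adjusted p 0.0160). The Ptgds call was lost without the highest cells (adjusted p 0.152) and without the mouse as a block (adjusted p 0.694).

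**Figure D5:**
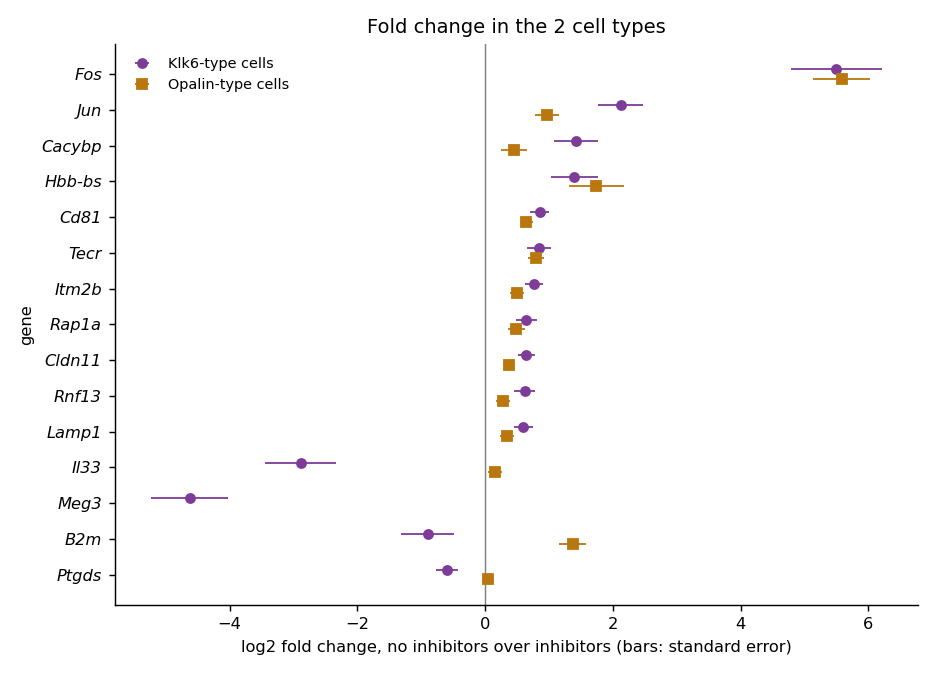
Log2 fold change, no inhibitors over inhibitors, in Klk6-type (purple) and Opalin-type cells (brown) for 15 genes called in Klk6-type cells or between the types, with bars for the standard error. Meg3 was not tested in Opalin-type cells. Fos lies near 5.5 in both types, while Il33 and B2m lie on opposite sides of 0.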

How the data were processed

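The authors deposited, for each of the 4 libraries, raw UMI counts per gene and barcode (31053 genes, 12487 barcodes), made with Cell Ranger 3.0.0 on mm10 (GRCm38) per the submitters' processing notes. A UMI count of 0 or few limits what could be seen, and totals per mouse are in the report. Cells were chosen by the rule given there. The members and all gene lists were chosen with earlier results of these data known. Barcodes were scored for doublets per library (2 simulated per cell, 20 neighbours, 0.8% per 1000 cells), and scored cells were kept.

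Sums of UMIs per mouse went into edgeR 4.0.16 under R 4.3.3 (quasi-likelihood with the robust option, TMM scaling, filterByExpr, group as the term), and with DESeq2 1.42.0, the tool of the study, as an alternative. Steps on simulated counts were checked first. Each library is 1 mouse, handled in an order that alternated between groups per the methods of the study. The genes named were all called genes, fixed identity and immediate-early genes, and the 15 highest and 10 lowest median ratios among genes of at least 100 UMIs with the same sign in 4 mice. Members of gene lists named beside their ratios of levels were chosen after their values were seen. Some genes that these rules name are not reported here, and marker sums leave such genes out. Cells were thinned at random to fixed depths for shares and counts per cell. Python 3.11.15, numpy 2.4.6, scipy 1.17.1 and pandas 2.3.3 were used. Gene positions were read from GENCODE vM21 and promoters from RefSeq, on the build of the files but not its gene set.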

Additional observations from a re-analysis of the deposited data

Results flagged for a closer look

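The difference between the inhibitor effect in Klk6-type and in Opalin-type cells passed edgeR's test for 3 genes. For Il33 the difference was -3.04 on the log2 scale, from fold changes of -2.89 in Klk6-type and 0.15 in Opalin-type cells. The call was lost without no-inhibitor mouse 1 (-1.84, edgeR adjusted p 0.770) and without inhibitor mouse 1 (-2.07, adjusted p 0.841), and Il33 was used to select the cells.

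For B2m the difference was -2.36, from -0.90 and 1.37. Without no-inhibitor mouse 1 it was -1.57 (edgeR adjusted p 0.811) and without inhibitor mouse 2 it was -1.64 (adjusted p 0.999).

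For Ptgds the difference was -0.64, from -0.60 and 0.04, and over the alternatives it ran from -1.36 to -0.08. With the rule applied after thinning to 1500 UMIs it was -1.36 (edgeR adjusted p 2.13e-08), and with none of the 6 genes of other cells allowed it was -0.08 (adjusted p 0.991). The cause of these changes was not tested.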

How the results depend on the processing

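With 22 to 46 cells per mouse, depth limited the tests to well-expressed genes. In Klk6-type cells the 12 higher calls became 0 with DESeq2, 0 with DESeq2 on genes past the filter, 6 without a filter on low counts, 5 with a lead of at least 2 genes and 6 with the rule applied after thinning. Leaving out a mouse gave 2 to 20, lowest without inhibitor mouse 2 and highest without no-inhibitor mouse 2. The 2 lower calls became 0 with DESeq2 in either form, 0 with none of the genes of other cells, 0 without the highest cells and 1 with a mitochondrial limit of 10%, a lead of 2 or thinning, and 2 to 6 with a mouse left out. The setting without the highest cell of each library and DESeq2 on filtered genes were added after seeing the data. In Opalin-type cells the 18 higher calls became 3 with DESeq2 in either form, 9 with a lead of 2, 9 with none of the genes of other cells and 10 with thinning, and 14 to 28 with a mouse left out. The 3 lower calls became 0 with DESeq2 in either form, 1 without scored doublets, with the mitochondrial limit, with none of the genes of other cells and with thinning, 0 with a lead of 2, 6 without the highest cells, and 1 to 17 with a mouse left out. For the difference of effects the 3 lower calls became 0 with DESeq2, 0 with a lead of 2, 1 without the highest cells and 0 to 5 with a mouse left out, where higher calls were 0 to 1.

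The labels number the mice 1 and 2 in each group. The deviations in gene levels of same-numbered mice correlated at -0.018 in Klk6-type and 0.0064 in Opalin-type cells. The share of Klk6-type cells was nevertheless higher in both mice numbered 1 (21.8% and 23.2%) than in both numbered 2 (12.8% and 14.0%). Whether same-numbered mice were handled together was not tested. With the number as a replicate block, 13 genes were called higher and 2 lower in Klk6-type cells, and 23 and 6 in Opalin-type cells. Without the block on the mouse, 2 genes were called lower for the difference of effects.

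The sign of some uncalled values turned. Klk6 ran from -0.60 to 0.41 with a mouse left out and was -0.0050 with DESeq2 on filtered genes, and Anln ran from -0.21 to 0.012. Opalin ran from -0.70 to 0.32, and was 0.095 with the mitochondrial limit and 0.033 with none of the genes of other cells. The difference for Fos ran from -0.083 to 2.30, and was -0.65 with a lead of 2, -0.85 with none of the genes of other cells, -0.21 with thinning and -0.43 without the highest cells. The differences for Hbb-bs (-0.54 to 0.16), Itm2b (-0.10 to 0.52) and Rap1a (-0.11 to 0.44; -0.030 with a lead of 2) also turned with a mouse left out.

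The difference in consensus UMIs per Klk6-type cell was 0.372 at 500 UMIs and 1.85 at 2000 UMIs. With at least 300 UMIs, 15 genes were higher and 18 lower by a log2 ratio of 1 in every mouse, in place of 40 and 37. A count per cell grows with the depth to which the cells are thinned, and fewer genes pass the higher limit. No other cause of these changes was tested.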
